A study of Mus musculus with 6 samples.

Results

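Fam129c and 8 genes grouped here as genes of mature B cells (Ms4a1, Cd22, Cr2, Fcer2a, Fcrla, Blk, Tnfrsf13c and Cxcr5) were followed in mouse bone marrow after hindlimb unloading. They were found by symbol in the deposited count table, where they are 9 of 54532 genes. The genes were chosen by name with the unloaded against control result of these same libraries already known: Fam129c was selected on its small p-value in that contrast, and the other 8 as genes of mature B cells. Their levels and fold changes are therefore a description, with no test read from them. The study took freshly isolated marrow cells from the femur of wild-type mice. There were 3 libraries from mice kept under hindlimb unloading for 4 weeks, in which the hind legs bear no weight and bone is lost, and 3 from control mice with no treatment. Strain, age, sex and the number of animals behind each library were not given in the sources used here. Nothing in the labels says that libraries came from separate animals, so every p-value measures the spread between these libraries, which may be technical.

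Mature B cells carry an antigen receptor whose signal is raised or damped by the co-receptors beside it, and they depend on the cytokine BAFF for survival. In the marrow they are found as recirculating cells beside a larger pool of B cell precursors, which express the pan-B genes but few of the receptors of mature cells. The 9 genes cover these functions: co-receptors and a kinase of antigen receptor signalling (Ms4a1, Cd22, Cr2, Blk), an Fc receptor and an Fc receptor-like protein (Fcer2a, Fcrla), the BAFF receptor (Tnfrsf13c), the homing receptor Cxcr5, and Fam129c, a protein of the Niban family found mainly in B cells. Not all of them need be restricted to mature cells, and how much RNA of each came from precursors was not tested.

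Total counts ran between 15850986 and 17775506 per library, and at these depths 3 counts equal 0.172 to 0.191 CPM (counts scaled to library size). Unloaded library 1 stood apart from the other 5. Its mitochondrial share was 0.439%, against 1.05% to 1.27% in the others, and its position on the first principal component, which held 34.8% of the variance, was -51.3, against 7.37 to 13.7. The fold changes of the 9 genes are therefore also given without it, as are the medians of the related gene lists and the values of the genes called there. Marrow is a mixture, and in bulk RNA fewer cells of a type and less RNA per cell cannot be told apart.

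Fam129c, Fcrla and Tnfrsf13c were lower in every unloaded library than in any control library, and the groups overlapped for the other 6 genes. Fam129c differed most, at 62.8% of its control mean, followed by Tnfrsf13c at 69.7% and Fcrla at 74.7%. None of the 9 was higher in every unloaded library. Cd22, Cr2, Fcer2a and Cxcr5 had positive log2 fold changes and Ms4a1 and Blk negative ones, all within the spread of the unloaded libraries. All 9 passed the filter on low counts, with 121 to 1641 counts per library.

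**Figure D1:**
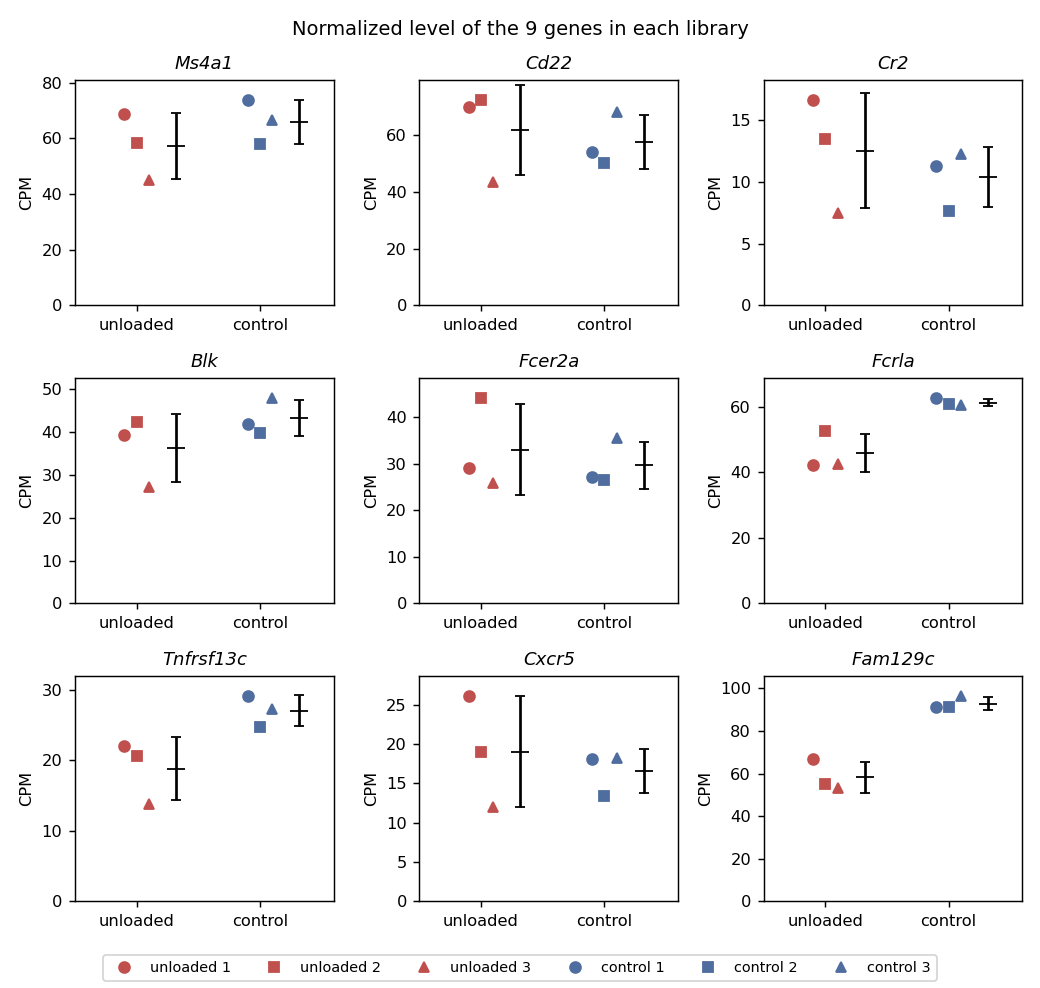
Normalized level (CPM, linear axis from 0) of each gene in the 3 unloaded and 3 control libraries, with bars for the mean ± SD beside the points. Fam129c, Fcrla and Tnfrsf13c are the panels in which all unloaded points lie below all control points.

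These counts stand beside the same counts over all 15015 genes tested. Groups that did not overlap with unloaded lower were found for 3 of the 9 genes and for 6.4% of all genes, and with unloaded higher for 0 of the 9 and 5.46% of all. An unadjusted p under 0.05 in edgeR's quasi-likelihood test was reached by 3 of the 9 and by 5.85% of all genes, which is 879 genes. After Benjamini-Hochberg adjustment over all genes edgeR called 0 of the 9 and 0% of all, and limma-voom likewise called 0 of the 9 and 0%. DESeq2 called 1 of the 9, Fam129c, and 0.253% of all genes, 35 of 13848. Fam129c was selected on this contrast and the other 8 were chosen with its result known, so nothing is read from the share of the 9. The median log2 fold change was -0.20 over the 9 genes and 0.01 over all genes tested, and -0.05 over the 8 genes without Fam129c. The median of the 9 was -0.31 without unloaded 1, -0.06 without unloaded 3 and -0.12 without control 1.

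Ms4a1 (ENSMUSG00000024673, mm10 chromosome 19, 11249675 to 11266241, minus strand) encodes CD20, a membrane protein of the B cell surface linked to antigen receptor signalling. It stood at 68.6, 58.2 and 45.1 CPM in unloaded libraries 1 to 3 and at 73.7, 57.9 and 66.4 CPM in control libraries 1 to 3. The groups overlapped, with the lowest value in unloaded 3. The log2 fold change was -0.20 ± 0.16 (SE), and -0.35 without unloaded 1. Without unloaded 3 it was -0.06.

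Cd22 (ENSMUSG00000030577, chromosome 7, 30865402 to 30880342, minus strand) is an inhibitory co-receptor that recruits phosphatases to the antigen receptor. It had 69.9, 72.4 and 43.6 CPM in the unloaded libraries, against 54.0, 50.3 and 68.3 CPM in the controls. Unloaded 1 and 2 were above every control and unloaded 3 was below every control. Its log2 fold change was 0.11 ± 0.19, moving to 0.01 without unloaded 1 and to -0.02 without unloaded 2.

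Cr2 (ENSMUSG00000026616, chromosome 1, 195136811 to 195176716, minus strand) encodes complement receptor CD21, which lowers the threshold for B cell activation by complement-coated antigen. It was the lowest of the 9 per length. Its levels were 16.6, 13.5 and 7.47 CPM in unloaded libraries and 11.3, 7.66 and 12.3 CPM in control libraries. Its log2 fold change was 0.27 ± 0.28, and 0.01 without unloaded 1. Blk (ENSMUSG00000014453, chromosome 14, 63372836 to 63417037, minus strand), a Src-family kinase of the antigen receptor pathway, had 39.4, 42.4 and 27.2 CPM in unloaded libraries and 42.0, 39.9 and 47.9 CPM in control libraries. Unloaded 3 was the lowest and the groups overlapped. Its log2 fold change was -0.25 ± 0.16, -0.31 without unloaded 1 and -0.08 without unloaded 3.

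Fcer2a (ENSMUSG00000005540, chromosome 8, 3681737 to 3694175, minus strand) encodes CD23, the low-affinity IgE receptor of follicular B cells. Its levels were 29.2, 44.1 and 26.0 CPM in unloaded libraries, against 27.2, 26.5 and 35.6 CPM in controls. Unloaded 2 gave the highest value. Its log2 fold change was 0.15 ± 0.20, and 0.24 without unloaded 1. It was -0.11 without unloaded 2. Fcrla (ENSMUSG00000038421, chromosome 1, 170917576 to 170927583, minus strand) encodes an Fc receptor-like protein that stays inside the B cell. It had 42.3, 52.4 and 42.5 CPM in unloaded libraries and 62.6, 60.8 and 60.4 CPM in controls. The control libraries lay very close together. Their coefficient of variation, 1.91%, was below the 3.1% that counting error alone gives, so it understates the spread to be expected. The gap between the highest unloaded and the lowest control value was 13.1% of the lowest control. The log2 fold change was -0.42 ± 0.12, and -0.37 without unloaded 1.

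Tnfrsf13c (ENSMUSG00000068105, chromosome 15, 82221743 to 82224369, minus strand) encodes the BAFF receptor, which carries the survival signal of mature B cells. Its levels were 22.1, 20.6 and 13.8 CPM in unloaded libraries and 29.1, 24.7 and 27.2 CPM in controls. Every unloaded library was below every control, with a gap of 10.5%, and unloaded 3 was the lowest. The log2 fold change was -0.52 ± 0.18, -0.65 without unloaded 1 and -0.34 without unloaded 3. Cxcr5 (ENSMUSG00000047880, chromosome 9, 44511787 to 44561877, minus strand), the receptor that guides B cells to follicles along CXCL13, had 26.1, 18.9 and 12.0 CPM in unloaded libraries and 18.1, 13.4 and 18.2 CPM in controls. The highest and the lowest value both came from unloaded libraries. Its log2 fold change was 0.20 ± 0.25 and turned to -0.10 without unloaded 1. Cxcl13, the ligand, had 0 counts in all 6 libraries.

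Fam129c (ENSMUSG00000043243, chromosome 8, 71597648 to 71607936, plus strand) stood at 66.7, 55.3 and 53.0 CPM in unloaded libraries and at 91.1, 91.1 and 96.4 CPM in control libraries. Its group means were 58.3 ± 7.31 CPM in unloaded and 92.9 ± 3.04 CPM in control marrow (SD, n = 3 each). The highest unloaded value was 26.8% below the lowest control, the widest gap of the 9 genes. The log2 fold change was -0.67 ± 0.11, and -0.78 without unloaded 1. A neighbouring gene on the same strand, Pgls, runs to position 71601092 and shares 3445 bases of the span of Fam129c. Pgls averaged 165 CPM in unloaded and 177 CPM in control libraries, with a log2 fold change of -0.11 ± 0.13, and -0.25 without unloaded 1. Reads in the shared bases could belong to either gene. Cxcr5 likewise shares 110 bases with Bcl9l on the opposite strand (log2 fold change 0.02 ± 0.13, and -0.06 without unloaded 1), and Fcrla holds the pseudogene Gm2962, which had 11 to 19 counts per library.

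**Figure D2:**
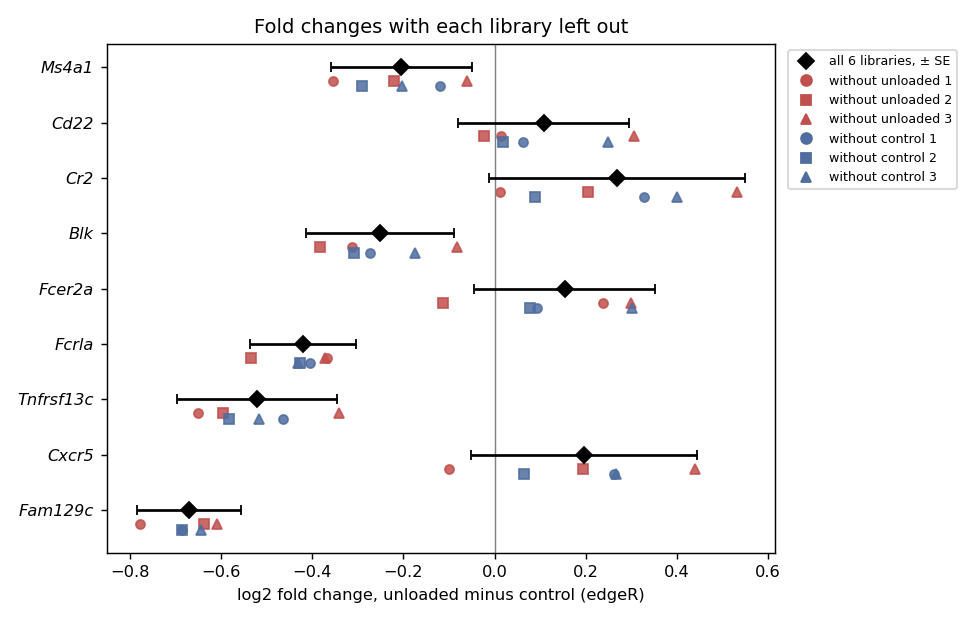
Log2 fold change (unloaded minus control) of each gene from all 6 libraries, with its standard error, and with each library left out in turn. Fam129c, Fcrla and Tnfrsf13c stay negative throughout, as do Ms4a1 and Blk, while the points of Cd22, Fcer2a and Cxcr5 reach both sides of 0.

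The sequence upstream of the 3 genes whose groups did not overlap is shown because it is where motifs of B lineage factors could be sought. The bases end just before each transcript start as RefSeq gives it on GRCm38.p6, or before the start in the count table where that comes first. They were searched on both strands for the E-box CANCTG bound by E2A, the PU.1 core GAGGAA, the octamer ATGCAAAT and the EBF1 motif. E2A is not among the B lineage factors described below. Read from the other strand, the E-box is CAGNTG. Capitals mark matches, and each sequence reads 5′ to 3′ on the strand of its gene.
Fam129c, chr8:71597458-71597647, plus strand: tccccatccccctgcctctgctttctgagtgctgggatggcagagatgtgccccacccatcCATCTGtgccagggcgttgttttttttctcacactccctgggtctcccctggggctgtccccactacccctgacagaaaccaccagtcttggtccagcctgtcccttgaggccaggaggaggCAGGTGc
Fcrla, chr1:170927584-170927833, minus strand: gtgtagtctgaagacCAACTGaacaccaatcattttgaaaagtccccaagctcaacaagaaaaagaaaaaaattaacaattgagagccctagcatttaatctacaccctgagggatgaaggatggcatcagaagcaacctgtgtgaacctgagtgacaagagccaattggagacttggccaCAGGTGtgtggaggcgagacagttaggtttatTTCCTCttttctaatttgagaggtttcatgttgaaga
Tnfrsf13c, chr15:82224381-82224630, minus strand: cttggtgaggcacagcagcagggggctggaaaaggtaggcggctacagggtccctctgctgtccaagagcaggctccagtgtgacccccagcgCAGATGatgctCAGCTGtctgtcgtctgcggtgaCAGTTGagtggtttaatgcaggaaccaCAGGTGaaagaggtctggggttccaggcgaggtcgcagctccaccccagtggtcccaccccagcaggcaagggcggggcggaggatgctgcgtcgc
The 190 bases of Fam129c held 2 E-boxes, a number reached by 8.49% of windows of that length among 32851 promoters. That share was counted over the 190 bases directly before each RefSeq start. The bases shown for Fam129c end 60 bases further upstream, so the share describes a shifted stretch. The 250 bases of Fcrla held 2 E-boxes, reached by 13.19%, and 1 PU.1 core, found in 23.25%. Tnfrsf13c held 4 E-boxes, reached by 0.56% of windows. Of the genes whose groups overlapped, Cr2 and Fcer2a also had a window that was searched. That of Cr2, a gene with a positive fold change, held 3 E-boxes, reached by 3.25% of windows, and that of Fcer2a held 0. Neither the octamer, found in 1.6% of windows of 250 bases, nor the EBF1 motif, found in 0.78%, was in any of these sequences. A match in letters is no measure of binding. The window of Fam129c lies within the span of Pgls but in none of its exons.

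Per kilobase of gene length (RPKM), Fcrla and Fam129c were the highest of the 9 genes in both groups. Fcrla had 26.2 ± 3.32 RPKM in unloaded and 35.1 ± 0.672 RPKM in control libraries, and Fam129c had 16.4 ± 2.05 RPKM in unloaded and 26.1 ± 0.855 RPKM in control libraries. Blk came after them in both groups, at 13.5 ± 2.97 RPKM in unloaded and 16.0 ± 1.54 RPKM in control libraries. Cr2 was the lowest, at 1.54 ± 0.574 RPKM in unloaded and 1.28 ± 0.299 RPKM in control libraries, with Cxcr5 next above it. In unloaded libraries the order between them was Cd22, Fcer2a, Ms4a1 and Tnfrsf13c, and in control libraries Tnfrsf13c, Cd22, Ms4a1 and Fcer2a. In unloaded libraries only Fcrla against Fam129c and Cxcr5 against Cr2 did not overlap as neighbours. In control libraries the neighbours among those 4 overlapped and all others were apart, so the middle of the order is not resolved in either group.

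The spread between libraries was wider in the unloaded group. The coefficient of variation ran between 12.5% (Fam129c) and 37.2% (Cr2) in unloaded libraries, and between 1.91% (Fcrla) and 23.4% (Cr2) in controls. Counting error alone gives 2.51% to 7.5%. Unloaded 3 held the lowest value of the 6 libraries for 8 of the 9 genes, and Fcrla was lowest in unloaded 1.

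**Figure D3:**
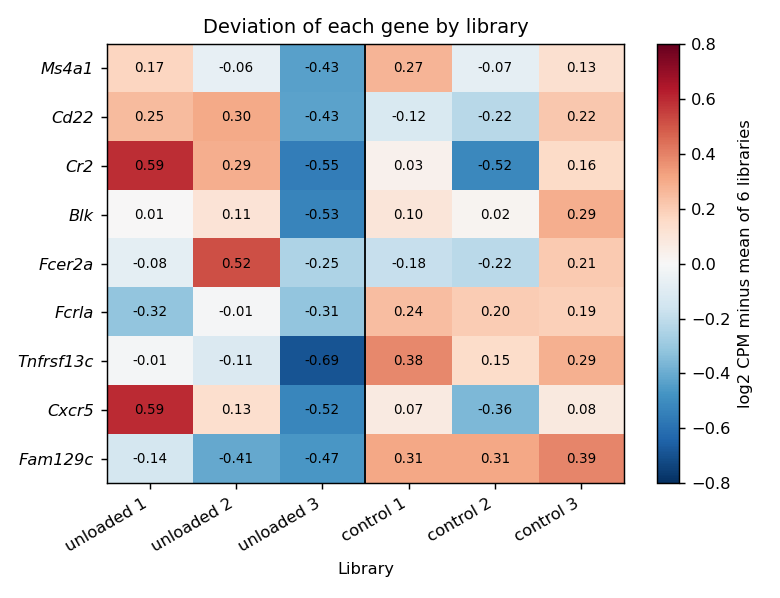
Log2 CPM of each gene in each library minus the mean of that gene over the 6 libraries, unloaded libraries left and control libraries right. Unloaded 3 is below the mean for all 9 genes, whereas Fam129c, Fcrla and Tnfrsf13c are below it in every unloaded library and above it in every control.

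Across the 6 libraries, the 8 genes other than Fam129c gave 28 pairs with Pearson correlations of log2 CPM between -0.143 and 0.978 and a median of 0.573. Cr2 and Cxcr5 were the most alike (0.978), followed by Cd22 and Cr2 (0.908) and Ms4a1 and Tnfrsf13c (0.897). Fam129c correlated at 0.869 with Tnfrsf13c and 0.812 with Fcrla, and at -0.218 to 0.061 with Fcer2a, Cr2, Cd22 and Cxcr5. These values hold the group difference on which Fam129c was selected. On deviations from the group means Fam129c correlated at -0.369 with Fcrla and 0.688 with Tnfrsf13c, and at 0.847 with Cxcr5, 0.758 with Cr2, 0.620 with Cd22 and 0.011 with Fcer2a. These values describe 6 points that share their libraries and their B cell content, with no p.

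As a reference within each library, Cd79a and Cd79b were used, the signalling chains of the antigen receptor, which precursors and mature B cells both express. Their summed level was 311, 273 and 203 CPM in unloaded libraries and 288, 279 and 322 CPM in control libraries, so that unloaded 3 was also the lowest in these genes. Singly, Cd79a averaged 139 ± 31.9 CPM in unloaded and 153 ± 15.9 CPM in control libraries. Cd79b averaged 123 ± 22.7 CPM in unloaded and 144 ± 8.96 CPM in control libraries. Their own log2 fold changes were -0.13 ± 0.16 for Cd79a and -0.23 ± 0.14 for Cd79b, and -0.29 and -0.34 without unloaded 1.

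Counted as a percentage of the summed Cd79a and Cd79b counts of the same library, Fam129c and Tnfrsf13c were still lower in every unloaded library, Cd22 was higher in every unloaded library, and the other 6 genes overlapped. Fam129c came to 21.4, 20.2 and 26.1% in unloaded libraries, against 31.7, 32.6 and 29.9% in controls. Tnfrsf13c came to 7.11, 7.55 and 6.77% in unloaded libraries, against 10.1, 8.85 and 8.45% in controls, and here unloaded 3 lay close to the other unloaded libraries. The log2 differences were -0.48 for Fam129c and -0.35 for Tnfrsf13c. Without unloaded 1 they were -0.45 for Fam129c and -0.35 for Tnfrsf13c.

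Cd22 came to 22.5, 26.5 and 21.5% in unloaded libraries, against 18.8, 18.0 and 21.2% in controls. Its groups were barely apart, with unloaded 3 just above control 3, and the log2 difference was 0.28. Fcrla came to 13.6, 19.2 and 20.9% in unloaded libraries and 21.7, 21.8 and 18.7% in controls, and its groups overlapped on this scale. Its log2 difference of -0.23 became -0.05 without unloaded 1. Cr2, Cxcr5 and Fcer2a had positive differences between 0.32 and 0.42. Cr2 was at 0.25 without control 2, Cxcr5 at 0.20 without unloaded 1, and Fcer2a at 0.14 without unloaded 2 and 0.53 without unloaded 1. Blk, at -0.08, and Ms4a1, at -0.02, differed least.

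**Figure D4:**
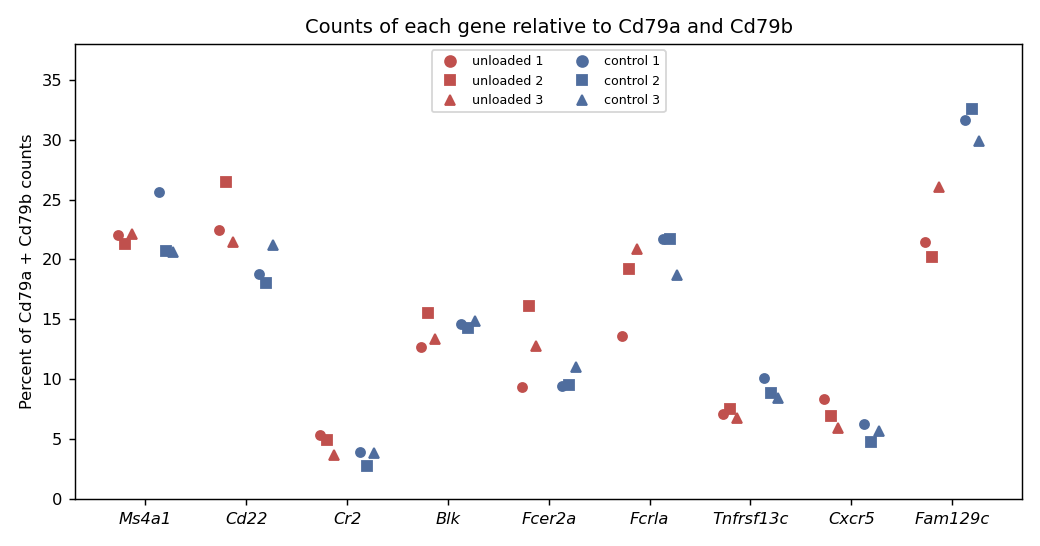
Counts of each gene as a percentage of the summed counts of Cd79a and Cd79b in the same library, unloaded points left of control points. Fam129c and Tnfrsf13c lie lower in every unloaded library, Cd22 lies narrowly higher, and the other genes overlap.

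The genes most like Fam129c over the 6 libraries, among 11586 protein-coding genes compared by Pearson correlation of log2 CPM, were Myl4 (0.994), Abhd15 (0.991), Prkcd (0.990), Ppm1k (0.984) and Ak8 (0.983). Myl4 averaged 10.8 ± 2.33 CPM in unloaded and 19.7 ± 1.30 CPM in control libraries. The genes most like the mean of the other 8 were Scd1 (0.997), Ufsp1 (0.992), Dnmt3a (0.987), Trim36 (0.987) and Sipa1l3 (0.985). Scd1 averaged 61.1 ± 17.6 CPM in unloaded and 66.7 ± 10.3 CPM in control libraries. Each was picked as the highest of all genes compared, so the size of these correlations is fixed by the choice.

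Other genes of the same pathways and of the cell types present were described from lists of 177 genes, of which 176 were tested. edgeR called 0 of them and 26 had an unadjusted p under 0.05, while DESeq2 called 4. Over all genes these shares were 0%, 5.85% and 0.253%, and 6.4% were separated lower (every unloaded library below every control), 5.46% separated higher and 48.8% negative. The list counts stand beside those shares, and 1 separated gene in a list of 11 to 20 is near them. All lists were chosen with earlier results of these data known, so nothing is read from a larger share. The 19 genes of the antigen receptor complex and its signalling had a median log2 fold change of -0.10, and -0.13 without unloaded 1, and 4 of them did not overlap, all lower. Cd81, Malt1 and Blnk were only narrowly apart: their highest unloaded values were 88.1, 69.0 and 48.4 CPM, against lowest controls of 90.2, 70.0 and 48.7 CPM. Their log2 fold changes of -0.18, -0.28 and -0.21 became -0.04, -0.12 and -0.27 without unloaded 1. Pik3ap1, the adaptor BCAP that links the receptor to PI3 kinase, had 92.9 ± 1.82 CPM in unloaded and 116 ± 6.41 CPM in control libraries (log2 fold change -0.32 ± 0.10). Among 13 inhibitory co-receptors and phosphatases, the list to which Cd22 is closest in function, 0 were separated and the median was 0.00, and -0.08 without unloaded 1. Cd72 stood at -0.33 ± 0.18 and Cd5, a receptor shared with T cells, at 0.61 ± 0.34. The most abundant gene of the signalling list was Syk, with 632 ± 175 CPM in unloaded and 675 ± 92.9 CPM in control libraries. That of the inhibitory list was Ptpn6, with 490 ± 64.9 CPM in unloaded and 481 ± 18.0 CPM in control libraries. Both were well above Cd79a. How much of either list came from marrow cells other than B cells was not tested.

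In the BAFF and APRIL list, 1 of 13 genes was separated and the median was -0.01, and -0.14 without unloaded 1. It was Tnfsf13b, which encodes BAFF itself, the ligand of the receptor made by Tnfrsf13c. Tnfsf13b had 32.1 ± 4.50 CPM in unloaded and 40.9 ± 2.48 CPM in control libraries, a log2 fold change of -0.35 ± 0.13 (edgeR adjusted p 0.802), and -0.26 without unloaded 1. Tnfrsf13b, the receptor TACI, was at -0.10 ± 0.12. The 11 tested positioning genes had a median of -0.02, and -0.07 without unloaded 1, and 1 was separated, the chemokine receptor Cxcr4, which retains B lineage cells in marrow. It had 276 ± 32.6 CPM in unloaded and 358 ± 24.4 CPM in control libraries (-0.38 ± 0.12). Of 20 other mature B cell genes 1 was separated, Ly86, with 33.3 ± 3.37 CPM in unloaded and 41.6 ± 2.45 CPM in control libraries, and the list's median was -0.05, and -0.13 without unloaded 1. How much of Cxcr4 and Ly86 came from marrow cells other than B cells was not tested. Cd40 was at -0.17 ± 0.22, and at -0.44 without unloaded 1.

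The lists of B lineage transcription factors and of precursor genes held 3 of the 4 genes that DESeq2 called. Of 16 factors 13 were negative, with a median of -0.18, and -0.19 without unloaded 1, and 5 were separated lower and 1 higher. Without unloaded 1, 15 were negative. DESeq2 called Spib and Bach2 lower, each at adjusted p 0.0049, which edgeR did not call (adjusted p 0.313 for each). Spib, an Ets factor of B cells and plasmacytoid dendritic cells, had 123 ± 13.6 CPM in unloaded and 185 ± 11.9 CPM in control libraries, and Bach2, a repressor that holds back plasma cell fate, had 52.1 ± 5.31 and 83.9 ± 13.1 CPM in unloaded and control libraries. Pou2af1, the octamer coactivator, had a log2 fold change of -0.45 ± 0.12. Without unloaded 1 the fold changes were -0.66 for Spib, -0.66 for Bach2 and -0.49 for Pou2af1.

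Of 16 pro-B and pre-B cell genes 12 were negative and 4 separated lower, with a median of -0.16. Without unloaded 1 the median was -0.03 and 10 were negative. Vpreb3, a chaperone of the pre-B receptor, had 28.0 ± 4.52 CPM in unloaded and 46.8 ± 4.72 CPM in control libraries, and DESeq2 called it lower (adjusted p 0.00432). Rag1, the recombinase, was at -0.66 ± 0.19 and Sox4 at -0.64 ± 0.18. Without unloaded 1, Vpreb3 was at -0.70, Rag1 at -0.53 and Sox4 at -0.68. The summed level of the list was 1292 to 1819 CPM in unloaded and 1657 to 1785 CPM in control libraries, and it overlapped. Cd24a, which other marrow cells also express, made up 54.3% to 66.3% of that sum. The other 15 genes summed to 591, 690 and 583 CPM in unloaded libraries and 777, 697 and 717 CPM in controls, where every unloaded library was lower, unloaded 2 by a narrow margin. Myb and Cd93 were the most abundant of these. Myb had 236 ± 50.8 CPM in unloaded and 267 ± 6.23 CPM in control libraries, and Cd93 130 ± 35.7 and 131 ± 11.3 CPM. How much of either came from other marrow cells was not tested.

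**Figure D5:**
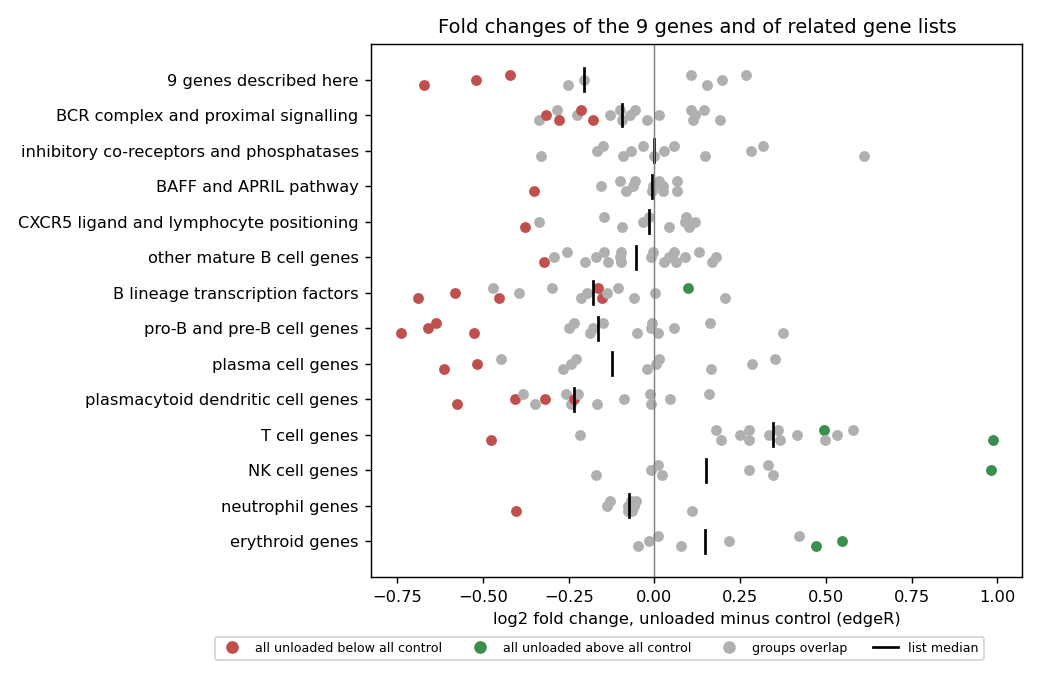
Log2 fold change (unloaded minus control, edgeR) of the 9 genes and of each gene in the related lists, with the list median as a bar. Red points are genes lower in every unloaded library and green points genes higher in every unloaded library.

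Markers of other cells that express some of the 9 genes, or that share the marrow, also differed between the groups, and their part in the results was not tested. For plasmacytoid dendritic cells, 13 of 15 genes were negative and 4 separated lower, with a median of -0.24, and -0.23 without unloaded 1. Their summed level was 1239 to 1362 CPM in unloaded and 1392 to 1441 CPM in control libraries. Ly6c2, also a monocyte gene, made up 45.2% to 63.5% of it, and the other 14 genes overlapped, at 683, 508 and 497 CPM in unloaded libraries and 595, 559 and 582 CPM in controls. Siglech, their surface lectin, had 37.3 ± 4.81 CPM in unloaded and 46.5 ± 2.24 CPM in control libraries. Plasma cell genes summed to 936 to 1013 CPM in unloaded and 916 to 1069 CPM in control libraries, with 2 of 12 separated lower, Sdc1 and Irf4. Their median was -0.12, and -0.17 without unloaded 1. Of the 12, 7 were negative and 5 positive, with Sdc1 at -0.61 ± 0.21, Prdm1 at 0.29 and Creld2 at 0.35. Creld2 was at -0.05 without unloaded 1, and 8 of the 12 were then negative.

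Of 16 T cell genes 14 had positive fold changes, with a median of 0.35, and 0.31 without unloaded 1, and 2 were separated higher and 1 lower. Their sum was 138 to 225 CPM in unloaded and 133 to 159 CPM in control libraries. Cd3e, a subunit of the T cell receptor complex, was at 6.40 ± 3.91 CPM in unloaded and 4.29 ± 0.773 CPM in control libraries. For 8 NK cell genes the median was 0.15, and 0.19 without unloaded 1, and 1 was separated higher. Neutrophil genes had a median of -0.07, and -0.10 without unloaded 1, with 9 of 10 negative, and 7 without unloaded 1. Erythroid genes had a median of 0.15, and 0.27 without unloaded 1, and DESeq2 called Hbb-bs, a beta globin, higher (adjusted p 0.0374), at 1945 ± 267 CPM in unloaded and 1332 ± 154 CPM in control libraries. Without unloaded 1 the log2 fold change of Hbb-bs was 0.52. No list had a marker at 0 in all libraries other than Cxcl13.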

How the data were processed

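Bulk RNA-seq was read from 1 deposited table of raw counts per gene for 6 libraries of mouse femur marrow. Per the labels' protocols, total RNA came from TRNzol and the NEBNext Ultra kit was used for the libraries. Per the submitters' processing notes the tools were CASAVA, HISAT2 2.0.5 and featureCounts 1.5.0-p3, with mm10. Settings for strand and multi-mapping reads were not stated there.

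The 9 genes and all lists were chosen with earlier results of these data known. In the context lists, up to 3 genes with the smallest edgeR p were named, besides a fixed set. In R 4.3.3, edgeR 4.0.16 (TMM, filterByExpr, quasi-likelihood test, Benjamini-Hochberg threshold 0.05) was fitted on all 6 libraries, which kept 15015 genes. 27245 genes had 0 counts everywhere. CPM are TMM-scaled and RPKM use the deposited gene lengths. DESeq2 1.42.0 and limma 3.58.1 were alternatives. The fits were also run on simulated data. These held no library like unloaded 1 and only changes larger than those of the 9 genes, so they do not check the fits for such a case. Scaling to Cd79a and Cd79b was chosen after seeing the data, in place of a wider planned set of which 1 item is not reported here. Promoters are RefSeq's, and 5 of the 9 genes had a window near their start. List sums without the most abundant gene, and list values without unloaded 1, were also added after seeing the data.

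Libraries share replicate numbers, but no label says that these numbers pair them. Deviations of same-numbered libraries from their group means correlated at 0.0309, -0.0633 and 0.0185. These values cannot decide whether the libraries are paired, because unloaded library 1 stands apart and shapes the deviations of its group. The main fit treats the libraries as unpaired.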

Additional observations from a re-analysis of the deposited data

How the results depend on the processing

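The count of genes called was 0 in the edgeR fit. It was 183 with no low-count filter, 35 with DESeq2, 8 with limma-voom and library weights, 1 with the replicate block, and 0 to 5 with each library left out (5 without unloaded 1). Context list genes called were 11 with no filter, 4 with DESeq2 and 1 with library weights. Fam129c was selected on its small p-value in these same libraries, so its calls only describe the settings and lend it no support. It was called with no filter, with DESeq2, with library weights and without unloaded 1. It was not called in the edgeR fit (adjusted p 0.288) or with the replicate block (0.241). Nor was it called with RLE or upper-quartile scaling, the 1 CPM filter, protein-coding genes alone or limma-voom without weights. With any other library left out it was not called either. The edgeR adjusted p was 0.259 and 0.442 without unloaded 2 and 3, and 0.999, 0.772 and 0.744 without controls 1 to 3. The cause of these differences between settings was not tested. Its log2 fold change ran between -0.78 and -0.48 over 16 alternatives. Fcrla ran between -0.53 and -0.23 and Tnfrsf13c between -0.65 and -0.34, each negative throughout. Cd22 turned negative without unloaded 2, Fcer2a likewise, and Cxcr5 without unloaded 1 and with library weights, at which the weight of unloaded 1 was 0.2242 and that of the others 1.15 to 1.561. The values nearest 0 for Fam129c and Fcrla came from scaling to Cd79a and Cd79b. The ratio of Ms4a1 to these genes turned to 0.08 without control 1. Upper-quartile scaling gave 466 higher and 418 lower genes at an unadjusted p under 0.05, against 401 and 478, and the median log2 fold change of all genes lay between -0.0024 and 0.0241 over all settings. Depth limits the 9 genes little: none had fewer than 121 counts.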
